A study of Mus musculus with 6 samples.

Results

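The genes described here encode AMP-activated protein kinase (AMPK), its upstream kinase and one of its best known substrates in muscle. They are the catalytic subunits Prkaa1 and Prkaa2, the scaffold subunits Prkab1 and Prkab2, the nucleotide-binding subunits Prkag1, Prkag2 and Prkag3, the kinase Stk11 (LKB1) with its pseudokinase partner Strada, and Acacb, which encodes acetyl-CoA carboxylase beta. They were chosen by name as the subunits of the kinase, its activating pair and a substrate, with no threshold on their values, and each of the 10 symbols matched exactly 1 of the 52550 mouse gene entries in the deposited table. All 10 passed the filter on low counts, which kept 13396 genes.

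RNA from quadriceps of 3 male FLExDUX4 mice and 3 male wild-type (WT) littermates, 13 weeks old by the sample labels, was sequenced with QuantSeq, which reads the 3′ end of polyadenylated RNA. The methods of the study instead give triceps and an age of 2 months, and which holds was not tested. FLExDUX4 mice were hemizygous for an inverted human DUX4 transgene at the Rosa26 locus and carried no Cre in this experiment, so that any DUX4 came from leaky expression, and the WT mice lacked the transgene. DUX4 is the transcription factor whose misexpression causes facioscapulohumeral muscular dystrophy. The values used were the counts summed over the mice of each genotype, 13110125 on genes for FLExDUX4 and 18367364 for WT, so each gene had 1 value per genotype, no spread between mice was computed and no test was run. Intervals below are 95% intervals for counting error only, and a single mouse could decide any difference.

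AMPK is a heterotrimer of an alpha, a beta and a gamma subunit that is switched on when AMP and ADP rise relative to ATP, as in contracting muscle. LKB1, held active by STRADα and the scaffold MO25, phosphorylates the activation loop of the alpha subunit. Among the targets of AMPK in muscle is acetyl-CoA carboxylase beta, which sits at the outer mitochondrial membrane and makes the malonyl-CoA that restrains fatty acid entry through carnitine palmitoyltransferase. In skeletal muscle the alpha2 and beta2 isoforms are known to prevail, and gamma3 is known as an isoform largely restricted to skeletal muscle, mostly to fast glycolytic fibers.

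The catalytic subunit genes lie on different chromosomes of GRCm38, Prkaa1 at chr15:5143861-5181899 on the plus strand and Prkaa2 at chr4:105029874-105109890 on the minus strand. Because paralogs can share reads, the longest exact run common to the coding transcripts of each pair in the GENCODE annotation was found. It is shown for the alpha and beta pairs because the comparisons between isoforms rest on telling them apart. It lies in the coding sequence of both genes in each pair, 4601 bases before the 3′ end of Prkaa1 and 7871 bases before that of Prkaa2, and 1512 and 4466 bases before the ends of Prkab1 and Prkab2.
Prkaa1 and Prkaa2: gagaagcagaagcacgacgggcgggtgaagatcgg
Prkab1 and Prkab2: ggagagcatcagtacaagttctt
These runs span 35 and 23 bases. The gamma genes shared at most 17 bases with one another. Of the 50-base windows in the last 500 bases of their coding transcripts, none occurred in a transcript of another gene for 8 of the 10 genes, and 0.897% did for Prkag3 and 1.22% for Strada. None of the other genes holding those windows was one of the 10.

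Levels are given as CPM, counts per 1e+06 counts of the genotype's total, scaled with the trimmed mean of M values (TMM). Since a 3′ assay gives about 1 read per transcript whatever its length, CPM was not divided by length. Levels of different genes are set side by side on that scale. Whether counts follow transcript levels alike across genes was not tested, which limits the order, shares and ratios between genes below. The coding transcripts of a gene had from 1 (Prkaa2, Prkab2) to 5 (Prkag2) annotated 3′ ends. Prkab2 had the highest level of the 10 genes in both genotypes, with 237.7 CPM in WT (interval 231 to 245) and 239 CPM in FLExDUX4 (interval 231 to 248). Prkaa2 followed with 184 and 183 CPM. Acacb, Stk11 and Prkag3 came next, and Prkag1 was below them with 27.5 and 25.6 CPM. Prkaa1, Strada, Prkab1 and Prkag2 were all between 2.24 and 10.4 CPM. The order of the 10 genes was the same in both genotypes. Neighbours whose intervals overlapped were Stk11 and Prkag3, and Strada and Prkab1, in WT only, Prkab1 and Prkag2 in FLExDUX4 only, and Prkaa1 and Strada in both.

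**Figure D1:**
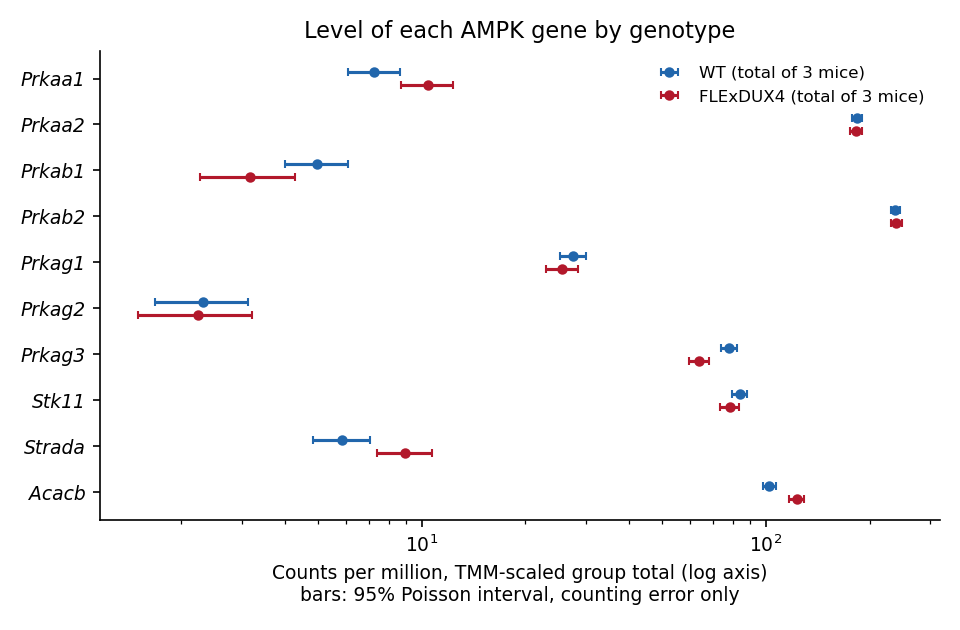
Level of each gene in CPM on a log axis, with 1 point per genotype for the total of 3 mice and bars for the 95% Poisson interval. The pairs of points for Prkaa2 and Prkab2 lie on top of each other near 183 and 239 CPM, while those of Prkaa1, Strada and Acacb are farther right, and those of Prkab1 and Prkag3 farther left, in FLExDUX4.

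Among the catalytic subunits, Prkaa2 had 2368 counts in FLExDUX4 and 3419 in WT. After scaling for the smaller FLExDUX4 total the log2 ratio of FLExDUX4 to WT was -0.01 (interval -0.09 to 0.06). That interval held 0, while with the totals scaled to the ERCC and SIRV spike-in RNAs, which lowers every log2 ratio by 0.28, the value was -0.29 (interval -0.37 to -0.21). Prkaa1 (alpha1), the isoform also found in most other cell types, had 135 counts in each genotype, or 10.4 CPM in FLExDUX4 (interval 8.72 to 12.3) and 7.27 CPM in WT (interval 6.10 to 8.61), a log2 ratio of 0.52 (interval 0.16 to 0.87). With spike-in scaling it was 0.24 and its interval, from -0.11 to 0.60, held 0. The total of both alpha genes was 193 CPM in FLExDUX4 and 191 CPM in WT, a log2 ratio of 0.01 (interval -0.06 to 0.08).

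The beta subunits gave the same picture for the abundant isoform and the opposite one for the scarce isoform. Prkab2 (chr3:97658193-97673812, plus strand) had 3104 counts in FLExDUX4 and 4412 in WT, a log2 ratio of 0.01 (interval -0.06 to 0.08) that was -0.02 when scaled by gene totals, -0.007 by the upper quartile and -0.27 by spike-ins. Prkab1 (chr5:116013586-116024508, minus strand) had 41 counts in FLExDUX4 and 92 in WT, or 3.16 CPM (interval 2.27 to 4.29) and 4.96 CPM (interval 4.0 to 6.08). Its log2 ratio was -0.64 (interval -1.22 to -0.10), the lowest of the 10 genes, and a 99% interval held 0. The total of both beta genes differed by a log2 ratio of -0.002 (interval -0.07 to 0.06).

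All of the gamma subunit genes had ratios below 0, and the interval of one excluded 0. Prkag3 (chr1:74738922-74749221, minus strand), the muscle gamma3 isoform, had 829 counts in FLExDUX4 and 1450 in WT, or 63.9 CPM (interval 59.6 to 68.4) and 78.1 CPM (interval 74.2 to 82.3). The log2 ratio was -0.29 (interval -0.42 to -0.17), so the level in FLExDUX4 was 0.818 of that in WT. Prkag1, the widely expressed gamma1 isoform, had 332 counts against 510 and a log2 ratio of -0.10 (interval -0.31 to 0.10), which was -0.38 (interval -0.58 to -0.18) with spike-in scaling. Prkag2, the gamma2 isoform known for its role in the heart, had 29 counts against 43 and a log2 ratio of -0.04 (interval -0.78 to 0.66), so that neither a higher nor a lower level was detectable at this depth. The total of the gamma genes was 91.7 CPM in FLExDUX4 and 107.9 CPM in WT, a log2 ratio of -0.23 (interval -0.34 to -0.13).

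Ratios between genes of one genotype do not depend on how the totals are scaled. There were 0.564 gamma counts per alpha count in WT (interval 0.533 to 0.595) and 0.475 in FLExDUX4 (interval 0.443 to 0.510). Per beta count there were 0.445 gamma counts in WT and 0.378 in FLExDUX4. There were 1.27 beta counts per alpha count in WT (interval 1.21 to 1.32) and 1.26 in FLExDUX4 (interval 1.19 to 1.32). A difference in the proportion of beta to alpha was not detectable at this depth (log2 difference -0.01, interval -0.11 to 0.09), and the gamma transcripts were scarcer beside either of them in FLExDUX4. Prkag3 alone, set against Prkaa2, differed between genotypes by a log2 ratio of -0.28 (interval -0.42 to -0.13).

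**Figure D2:**
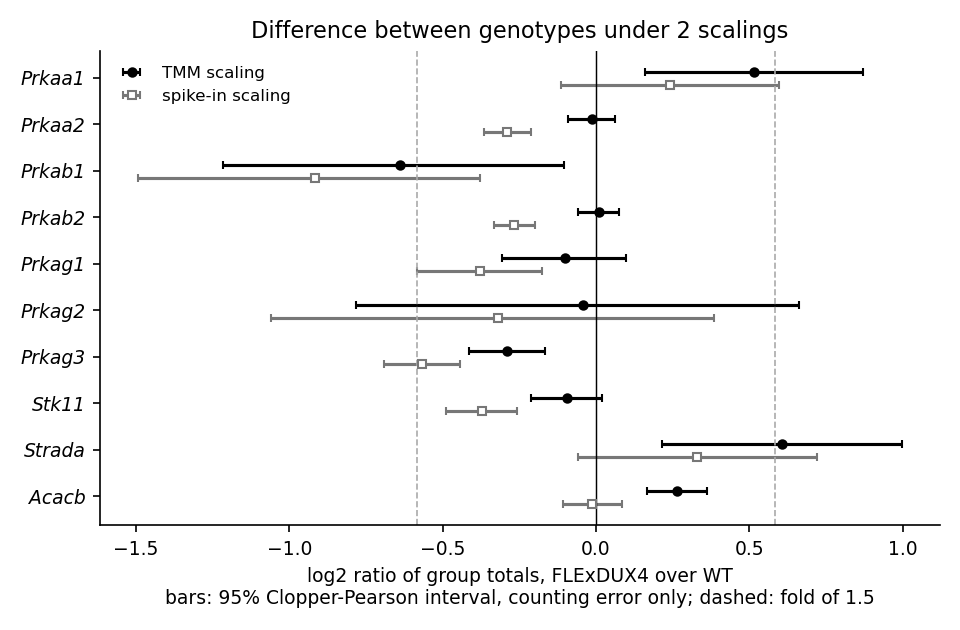
Log2 ratio of the FLExDUX4 to the WT total for each gene under TMM scaling (filled circles) and spike-in scaling (open squares), with 95% Clopper-Pearson intervals and dashed lines at a fold of 1.5. Under TMM scaling the values run from -0.64 for Prkab1 to 0.61 for Strada, and spike-in scaling moves all of them by -0.28.

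Within the alpha class Prkaa2 took 96.2% of the counts in WT (interval 95.5 to 96.8) and 94.6% in FLExDUX4 (interval 93.6 to 95.5), and Prkaa1 took the remaining 3.80% and 5.39%. Within the beta class Prkab2 took 97.96% in WT (interval 97.5 to 98.4) and 98.7% in FLExDUX4 (interval 98.2 to 99.1). Prkag3 took 72.4% of the gamma counts in WT (interval 70.4 to 74.3) and 69.7% in FLExDUX4 (interval 67.0 to 72.3), Prkag1 took 25.5% and 27.9%, and Prkag2 took 2.15% and 2.44%. The dominant isoform was the same in both genotypes in each class. The odds of Prkaa1 among alpha counts were higher in FLExDUX4 by 0.53 on the log2 scale (interval 0.17 to 0.89), and the odds of Prkab1 among beta counts differed by -0.66 (interval -1.23 to -0.11). For Prkag3 among gamma counts the difference was -0.19 with an interval from -0.42 to 0.04, so a shift among the gamma isoforms was not detectable at this depth.

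**Figure D3:**
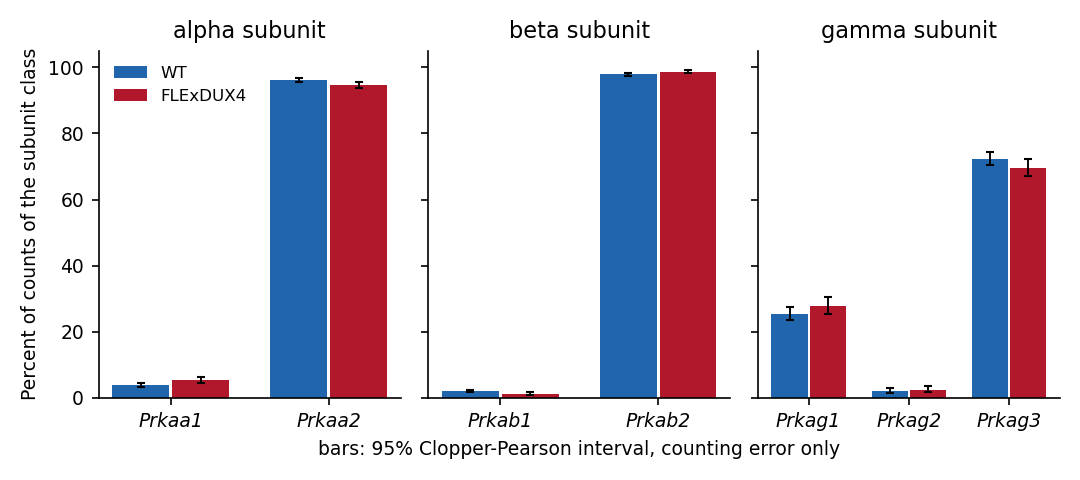
Percent of the counts of each subunit class that fell on each isoform gene, by genotype, with 95% Clopper-Pearson intervals. Prkaa2 and Prkab2 take over 94% of their classes in both genotypes, while the gamma class is split between Prkag3 near 70% and Prkag1 near 25.5% to 27.9%.

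The kinase gene Stk11 (chr10:80115803-80130682, plus strand) had 1017 counts in FLExDUX4 and 1555 in WT, or 78.4 CPM (interval 73.6 to 83.4) and 83.8 CPM (interval 79.7 to 88.1). Its log2 ratio was -0.10 (interval -0.21 to 0.02), but the interval lay below 0 when scaled by gene totals (-0.24 to -0.01) or by spike-ins (-0.49 to -0.26). The neighbouring Cbarp covers 232 bases of its last exon on the opposite strand and had 1 and 15 counts. Opposite-strand genes also cover 153 bases of the last exon of Prkag1 and 9 bases of that of Prkab2. Both had 0 counts in each genotype. Since the strand setting of the counting is not given in the sources used here, reads of these overlaps cannot be assigned with certainty. Strada (chr11:106163330-106202168, minus strand) had 116 counts against 109, or 8.94 CPM (interval 7.39 to 10.7) and 5.87 CPM (interval 4.82 to 7.08). The log2 ratio of 0.61 (interval 0.22 to 1.0) was the highest of the 10 genes, and with spike-in scaling it was 0.33 with an interval that held 0 (-0.06 to 0.72). There were 0.114 Strada counts per Stk11 count in FLExDUX4 (interval 0.0933 to 0.138) and 0.0701 in WT (interval 0.0572 to 0.0852), a comparison that holds under any scaling. An annotated small nuclear RNA gene on the same strand lies across 144 bases of the last exon of Strada and had 0 counts in both genotypes. Those 0 counts do not show how reads of the overlap were counted.

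Acacb (chr5:114146535-114250761, plus strand) had 1595 counts in FLExDUX4 and 1900 in WT, or 123 CPM (interval 117 to 129) and 102 CPM (interval 97.8 to 107). The log2 ratio was 0.26 (interval 0.17 to 0.36) under TMM scaling and -0.01 (interval -0.11 to 0.08) with spike-in scaling. Against Prkaa2, the main catalytic gene of the kinase that phosphorylates its product, Acacb stood at 0.674 counts per count in FLExDUX4 (interval 0.632 to 0.718) and 0.556 in WT (interval 0.525 to 0.588), which no scaling changes. Its paralog Acaca, the cytosolic carboxylase of fatty acid synthesis, had 171 counts in FLExDUX4 and 214 in WT, with a log2 ratio of 0.19 (interval -0.11 to 0.49). There were 9.33 Acacb counts per Acaca count in FLExDUX4 and 8.88 in WT, with overlapping intervals from 7.96 to 10.99 and from 7.70 to 10.3.

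At a fold of at least 1.5, 1 of the 10 genes was higher in FLExDUX4 (Strada) and 1 was lower (Prkab1), beside 13.2% and 13.5% of all genes compared. Strada was just past that fold at 1.52, and Prkaa1 was just short of it at 1.43. The counting interval excluded 0 for 3 genes that were higher (Prkaa1, Strada and Acacb), where the share of all genes was 20.5%, and for 2 that were lower (Prkab1 and Prkag3), where it was 20.6%. Of 10 genes, such counts are near the shares of all genes. The median log2 ratio of the 10 genes was -0.03, with 4 above 0, beside -0.001 for all genes compared.

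Ratios are set here beside those of genes of like depth. The 4 genes with at least 50 and under 300 counts over both genotypes (Prkaa1, Prkab1, Prkag2 and Strada) had a median size of 0.56 on the log2 scale, where the median over 4776 genes of that depth was 0.40. Prkag2, with the fewest counts of the 10, was the exception among them at -0.04. At that depth 16.4% of genes were at least 1.5-fold higher and 17.0% at least 1.5-fold lower in FLExDUX4, and the counting interval excluded 0 on the higher side for 19.2% and on the lower side for 18.9%, beside 2 and 1 of these 4 genes. The 6 genes with 800 to 8000 counts had a median size of 0.10, beside 0.13 over 2962 genes of that depth. At that depth 1.15% of genes were at least 1.5-fold higher and 0.405% at least 1.5-fold lower, and none of the 6 was. The counting interval excluded 0 on the higher side for 23.6% and on the lower side for 23.1% of these deeper genes, and for Acacb and Prkag3 among the 6.

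**Figure D4:**
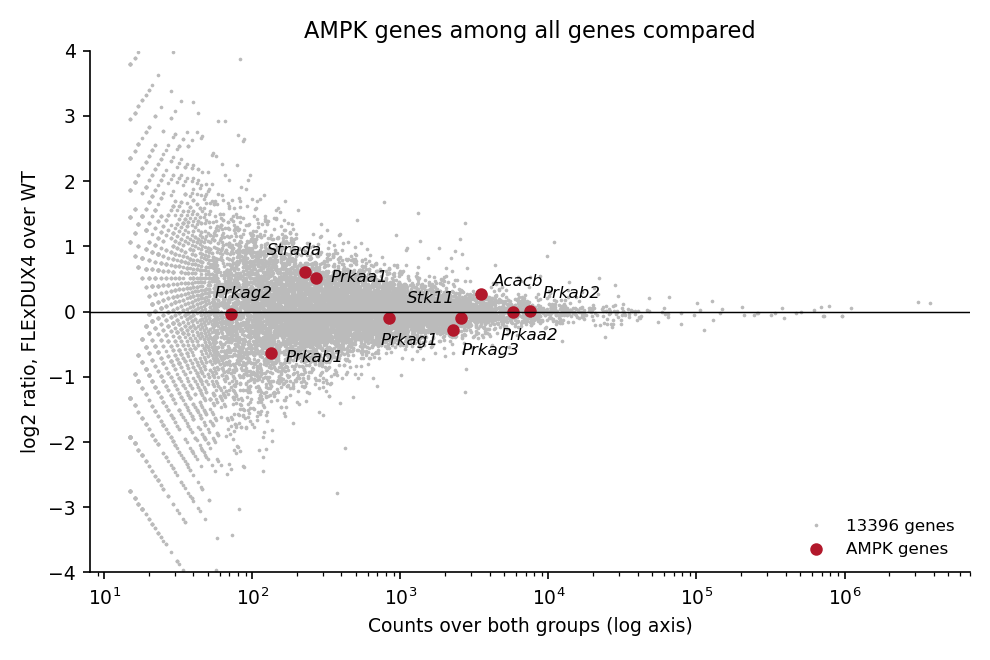
Log2 ratio of FLExDUX4 to WT against counts over both genotypes (log axis) for 13396 genes in grey, with the 10 AMPK genes marked and 109 grey points more than 4 from 0 not drawn. The marked genes lie within the grey cloud, the 4 with few counts in its wide part and the 6 others where it narrows.

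The highest marker levels were those of fast skeletal muscle fibers. The 8 fast fiber genes listed summed to 109054 CPM in FLExDUX4 and 109720 CPM in WT, with log2 ratios from -0.19 to 0.07, and the 6 slow fiber genes to 792 and 868 CPM, with an interval below 0 for 4 of the 6 and above 0 for none. Of the fast fiber genes, 6 had an interval below 0 and 2 above, beside 20.6% and 20.5% of all genes. Those shares, which also stand beside the slow fiber counts, are over genes of all depths. The fast fiber genes had 35044 to 1110478 counts over both genotypes, where an interval is narrow enough that Tnnt3 excluded 0 at -0.02. With spike-in scaling the interval was below 0 for all 8 fast and all 6 slow fiber genes. The median log2 ratios were then -0.30 and -0.39. Myh4, the myosin of the fast glycolytic fibers in which gamma3 is known to be enriched, had a log2 ratio of -0.07 (interval -0.07 to -0.06). Per Myh4 count, Prkag3 differed between genotypes by a log2 ratio of -0.22 (interval -0.35 to -0.10), a ratio that no scaling changes. Myh1, the myosin of another fast fiber type, was at -0.19. The part of the fiber genes in the gamma values was not tested. In whole muscle, fewer cells of a type and less RNA per cell cannot be told apart.

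Markers of other cell types were summed in the same way. Of 8 adipocyte markers, 6 had a ratio above 0, beside 6685 of the 13396 genes compared. The log2 ratios of the list ran from -0.82 to 0.88. Its sum was 395 CPM in FLExDUX4 and 314 CPM in WT, and no adipocyte marker was at 0 counts. The interval was above 0 for 5 adipocyte markers and below 0 for 1, which became 2 and 3 with spike-in scaling. Under TMM scaling it was above 0 for 2 of 4 progenitor and 2 of 4 Schwann cell markers and below 0 for none. With spike-in scaling the counts above and below 0 were 2 and 1 for progenitor and 0 and 2 for Schwann cell markers. Adipoq, the adipocyte hormone that acts on AMPK, had 294 counts in FLExDUX4 and 258 in WT. Blood markers summed to 1279 and 1020 CPM, endothelial markers to 161 and 188 CPM, leukocyte markers to 24.4 and 24.9 CPM, fibro-adipogenic progenitor markers to 1113 and 987 CPM and Schwann cell markers to 144 and 136 CPM, in FLExDUX4 and WT respectively. Of the 5 blood markers all had an interval above 0, of the 5 endothelial markers 3 had one below 0, and no leukocyte marker had an interval that excluded 0, where 20.5% of all genes had one above and 20.6% one below. With spike-in scaling 1 blood marker had an interval above 0, and all 5 endothelial and 2 leukocyte markers had one below. When scaled to the spike-ins, these lists had median log2 ratios of 0.03 for adipocyte, 0.05 for blood, -0.72 for endothelial, -0.59 for leukocyte, -0.03 for progenitor and -0.08 for Schwann cell markers. Their part in the values of Acacb, Prkaa1 and Prkag3 was not tested.

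The other genes of the pathway were taken from further lists. Scaling to the spike-ins moved the median of all genes from -0.001 to -0.28, so a ratio between 0 and 0.28 changes sign under it. Among 6 further upstream kinases and LKB1 partners, 2 were at least 1.5-fold higher and none lower, beside 13.2% and 13.5% of all genes, and the median was 0.14. With spike-in scaling 1 was past that fold and the median was -0.14. Camkk2, the calcium-driven kinase that can activate AMPK without LKB1, had 142 counts in FLExDUX4 and 109 in WT, a log2 ratio of 0.90 (interval 0.53 to 1.27), and was also in the study's own list. Cab39l, one of the genes for MO25, had 210 and 171 counts, a log2 ratio of 0.81 (interval 0.51 to 1.11) that became 0.54, short of that fold, with spike-in scaling. The more abundant Cab39 had a ratio of 0.13 (interval 0.02 to 0.24) and Stradb of 0.06 (interval -0.08 to 0.19). Both of these are below 0 with spike-in scaling, at -0.14 and -0.22.

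Of 4 phosphatase genes that act on AMPK, 3 were compared. None was past a fold of 1.5, beside 13.2% higher and 13.5% lower of all genes. Ppp2ca, a catalytic subunit of protein phosphatase 2A and also in the study's list, was higher by 0.33 on the log2 scale (interval 0.21 to 0.44), but by 0.05 with an interval that held 0 once scaled to the spike-ins. Ppm1a was higher by 0.16 (interval 0.10 to 0.23), a value of -0.11 with spike-in scaling. All 3 genes of the folliculin complex, which acts at the lysosome and binds AMPK, had an interval above 0, as did 20.5% of all genes, and 1 of the 3 did with spike-in scaling. Flcn itself had 540 counts in FLExDUX4 and 503 in WT, or 41.6 and 27.1 CPM, a log2 ratio of 0.62 (interval 0.44 to 0.80) that was 0.34, short of a fold of 1.5, with spike-in scaling. Fnip1, its more abundant partner, stood at 0.18 on the log2 scale (interval 0.06 to 0.30), and at -0.09 when scaled to the spike-ins. Fnip2, the other partner, had only 40 and 34 counts and a log2 ratio of 0.75.

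Along the malonyl-CoA axis, 5 of 6 genes were compared, 1 was at least 1.5-fold higher and none lower, beside 13.2% and 13.5% of all genes. Mlycd, which degrades malonyl-CoA, had 987 counts in FLExDUX4 and 1157 in WT and a log2 ratio of 0.29 (interval 0.16 to 0.41), beside 0.26 for Acacb, which makes it. When scaled to the spike-ins Mlycd was at 0.01 and its interval held 0. For Slc25a20, the carnitine-acylcarnitine carrier, the value was 0.26 (interval 0.13 to 0.39), or -0.01 with spike-in scaling, and for Cpt2, the inner carnitine palmitoyltransferase, it was -0.03 (interval -0.20 to 0.14). Cpt1a, the isoform best known from liver, had 85 and 60 counts in FLExDUX4 and WT and a log2 ratio of 1.02 with an interval from 0.53 to 1.52. Cpt1b, the muscle isoform of the transferase that malonyl-CoA inhibits, had 6 counts in FLExDUX4 and 0 in WT and did not pass the filter. The later annotation used here places another gene on the same strand over 575 bases of its last exon. That gene has no entry in the deposited table, and the cause of the low Cpt1b count was not tested.

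Of 15 substrates and effectors of AMPK, the counting interval was above 0 for 5 and below 0 for 5, beside 20.5% and 20.6% of all genes, which for the list became 2 and 11 with spike-in scaling, and the median log2 ratio was -0.01 and then -0.29. Pfkfb3, which drives glycolysis through fructose 2,6-bisphosphate, had 760 counts in FLExDUX4 and 2004 in WT, a log2 ratio of -0.88 (interval -1.0 to -0.76). Rptor, the mTORC1 subunit that AMPK phosphorylates, had 83 and 255 counts, a log2 ratio of -1.10, and was also in the study's list. Gys1, the muscle glycogen synthase, was lower by a log2 ratio of -0.17 (interval -0.24 to -0.09). Slc2a4, the insulin- and contraction-responsive glucose transporter, gave 0.13 (interval 0.05 to 0.20), or -0.15 with spike-in scaling. Ppargc1a, the coactivator of mitochondrial biogenesis, had 1101 counts in FLExDUX4 and 1194 in WT, a log2 ratio of 0.40 with an interval from 0.28 to 0.52, and of 0.12 with spike-in scaling.

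Of 12 AMPK-related kinases that LKB1 also activates, 11 were compared, none was 1.5-fold higher and 3 were 1.5-fold lower, where 13.5% of all genes and 17.0% of those with at least 50 and under 300 counts were lower by that fold. With spike-in scaling 4 were. Of the 11, 7 were above 0, the interval was above 0 for 2 and below 0 for 3, and the median of 0.07 became -0.21 on the spike-in scale. Sik2 had 40 counts in FLExDUX4 and 123 in WT, a log2 ratio of -1.09 (interval -1.66 to -0.58). The 2 others past the fold under TMM scaling were Mark1, with 14 and 61 counts, and Brsk1, with 1 and 18, named after their values were seen. The most counted of these kinases, Nuak1, gave 0.17 on the log2 scale (interval 0.02 to 0.33), or -0.10 with spike-in scaling, and Snrk gave 0.42 (interval 0.25 to 0.60), or 0.15 with an interval that held 0. Of 7 enzymes of adenine nucleotide balance, which set the AMP signal, 6 were compared and none passed a fold of 1.5, beside 13.2% higher and 13.5% lower of all genes. The interval was above 0 for 2 and below 0 for 3, where 20.5% and 20.6% of all genes had one, and with spike-in scaling for 0 and 5. Ampd1, the muscle AMP deaminase, gave a log2 ratio of -0.15 (interval -0.23 to -0.07). For Ak1, an adenylate kinase, it was 0.004 (interval -0.03 to 0.03), or -0.27 with spike-in scaling. For Ckm, muscle creatine kinase, it was 0.05 (interval 0.04 to 0.06), or -0.22 with spike-in scaling.

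The study's AMPK signaling list was chosen on these samples and so is not independent evidence of a direction. It held 11 genes, 5 at least 1.5-fold higher and 3 at least 1.5-fold lower in FLExDUX4, beside 13.2% and 13.5% of all genes, with a median log2 ratio of 0.54. With spike-in scaling 3 were higher and 3 lower by that fold and the median was 0.27. Of the 10 genes described here, only Acacb was in it. Among its genes with at least 100 counts the highest log2 ratio was that of Foxo1, a transcription factor of the fasting response, at 1.51 (interval 1.34 to 1.68). Irs1, an insulin receptor substrate, was at -0.68 (interval -0.82 to -0.55), and the phosphatase gene Ppm1m, with 12 counts in FLExDUX4 and 63 in WT, was at -1.83.

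**Figure D5:**
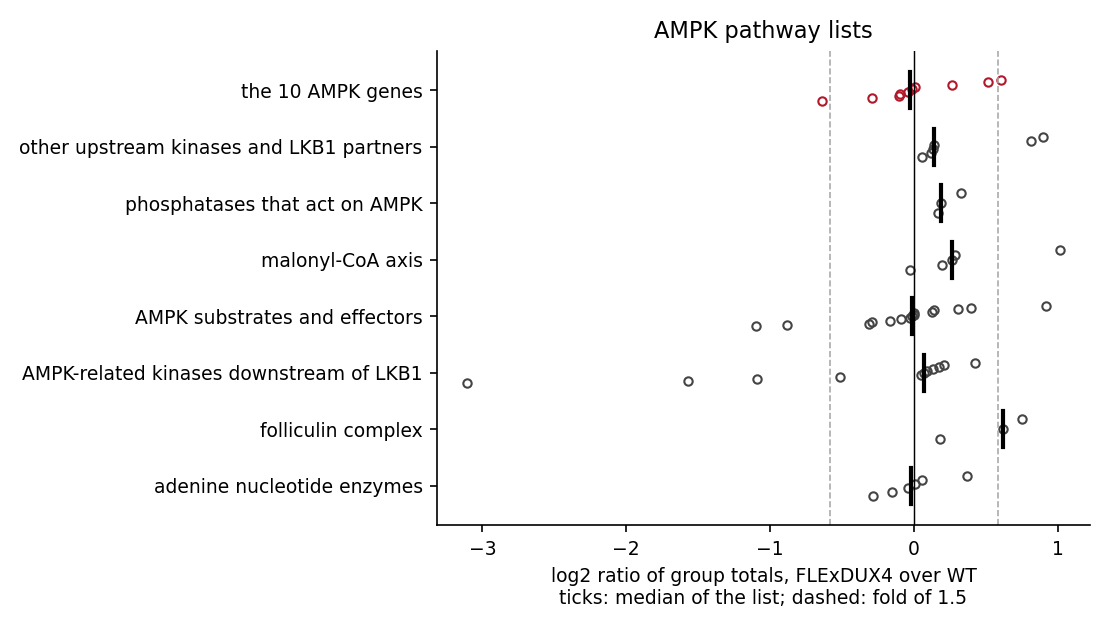
Log2 ratio of FLExDUX4 to WT for the 10 AMPK genes (red) and each gene of the further pathway lists that was compared (grey), with a black tick at each list's median and dashed lines at a fold of 1.5. The medians run from -0.03 for the AMPK genes to 0.62 for the folliculin complex, and the lowest point is Brsk1, with 1 count in FLExDUX4 and 18 in WT.

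Promoter sequence, which the choice of genes did not use, was read from RefSeq for GRCm38.p6 as 300 bases around each start, most of them upstream. All 10 genes matched, with 12 promoters because Prkag2 has 3. The promoters of the scarce and the abundant alpha gene are shown with those of Prkag3 and Acacb, whose levels differed between genotypes beyond counting error among the genes with more counts, for Acacb not with spike-in scaling. The RefSeq start of Acacb lies inside the gene as GENCODE draws it. Capitals mark the E-box motif CANNTG, the form bound by MyoD and other basic helix-loop-helix factors.
Prkaa1, chr15:5143611-5143910, plus strand: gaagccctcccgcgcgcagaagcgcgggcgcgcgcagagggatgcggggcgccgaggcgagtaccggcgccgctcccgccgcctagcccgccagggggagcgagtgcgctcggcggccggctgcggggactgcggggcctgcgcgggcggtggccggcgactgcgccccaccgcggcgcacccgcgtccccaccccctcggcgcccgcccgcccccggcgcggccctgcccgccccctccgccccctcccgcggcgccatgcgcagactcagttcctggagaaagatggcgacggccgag
Prkaa2, chr4:105109849-105110148, minus strand: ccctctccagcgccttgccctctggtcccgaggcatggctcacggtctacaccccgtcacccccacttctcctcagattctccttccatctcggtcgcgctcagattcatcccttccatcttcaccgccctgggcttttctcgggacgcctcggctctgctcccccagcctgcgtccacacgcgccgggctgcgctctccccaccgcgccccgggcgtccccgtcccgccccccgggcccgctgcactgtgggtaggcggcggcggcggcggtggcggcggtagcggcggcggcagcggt
Prkag3, chr1:74748906-74749205, minus strand: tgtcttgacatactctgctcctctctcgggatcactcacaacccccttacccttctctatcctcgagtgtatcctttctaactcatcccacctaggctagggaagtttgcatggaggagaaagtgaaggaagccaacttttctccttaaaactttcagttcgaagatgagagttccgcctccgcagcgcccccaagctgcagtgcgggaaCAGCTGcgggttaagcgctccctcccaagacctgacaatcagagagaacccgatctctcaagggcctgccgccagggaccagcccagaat
Acacb, chr5:114165268-114165567, plus strand: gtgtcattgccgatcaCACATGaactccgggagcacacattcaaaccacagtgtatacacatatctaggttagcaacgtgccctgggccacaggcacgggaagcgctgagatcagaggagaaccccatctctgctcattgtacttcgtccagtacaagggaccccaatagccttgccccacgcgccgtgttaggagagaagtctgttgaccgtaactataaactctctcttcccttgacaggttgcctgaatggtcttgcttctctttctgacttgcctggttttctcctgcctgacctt
The alpha promoters were rich in CpG, with 52 CpG dinucleotides and 82% G or C in Prkaa1 and 35 and 72.7% in Prkaa2, where the median over 32851 promoters was 7 and 52.7%. Prkag3 (11 CpG, 54% G or C) and Acacb (10 and 51.7%) were close to that median. CANNTG, which reads the same on both strands, was found once in Prkag3 and once in Acacb and in neither alpha promoter, while 72.3% of all promoters held it. The GC box GGGCGG, searched on both strands, was found 5 times in Prkaa1 and 2 times in Prkaa2 and in neither of the others, beside 35.7% of all promoters with at least 1. TATAAA, also on both strands, was found in Acacb alone of the 12 promoters and in 13.6% of all. Matches of different motifs shared a base in 0 of the 12 promoters. Such matches describe these windows and say nothing of which factors act there.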

How the data were processed

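Per the submitters' processing notes, adapters were removed by the authors using cutadapt 1.16, reads were mapped using STAR 2.5.3a to GRCm38 (the notes also list GRCh38, and the mouse build follows the study's methods and the gene identifiers) with ERCC and SIRV sequences, featureCounts 1.6.2 gave the counts, and DESeq2 served their comparison of genotypes. The deposited counts used here are whole-number counts per gene, 1 column per genotype, taken as the sum over its 3 mice with no normalization. In the table, 6 columns of values per sample carry names that match no sample label and were not used, nor were the authors' mean, fold changes and p-values. The edgeR test planned for values per sample therefore gave way to ratios of totals with no test. Spike-ins (99 features) were left out of gene totals and took 1.65% of FLExDUX4 and 1.40% of WT counts. The 10 most counted genes took 43.6% and 42.4% of gene counts.

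TMM factors came from edgeR 4.0.16 under R 4.3.3, on the genes that filterByExpr kept, and log2 ratios used a pseudocount of 0.5. Intervals are exact at 95% (Clopper-Pearson for ratios and shares, Poisson for CPM, in scipy 1.17.1 with Python 3.11.15), and reads without molecular identifiers are not independent molecules. Differences of shares and of ratios between genes are conditional odds ratios with exact intervals. Alternatives were other scalings, filters, pseudocounts, folds and a wider interval. The scripts were tested on simulated data. Named genes are the 10 members and, from each of 21 lists, those past a fold of 1.5 with at least 100 counts and up to 4 others with the most counts. From the lists, Myh1, Cpt1b, Mark1 and Brsk1 are named outside that rule. Members and lists were chosen with earlier results of these data known, and the count ranges (50 to under 300, and 800 to 8000) after the members' counts were seen. Coordinates are from GENCODE M21 on GRCm38, which is later than the authors' annotation. The start differed from the deposited one by 1 base for Prkag1 and by 0 for the other members. An item of the AMPK substrate list is not reported here by itself or in counts past a fold.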

Additional observations from a re-analysis of the deposited data

How the results depend on the processing

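No paired analysis was possible because no column of single samples carries a label, and for the same reason leaving out replicates, a replicate block and DESeq2 were not run. Depth limits Prkag2, Prkab1, Strada and Prkaa1. Scaling by RLE, upper quartile or totals without the 10 top genes, no filter, at least 100 counts (which drops Prkag2) and pseudocounts of 0 and 2 left every ratio of the 10 genes within its counting interval and the counts of genes past a fold of 1.5 the same, though Prkab2 (0.01) was at -0.007 with the upper quartile and -0.02 with gene totals. Gene totals left 0 genes, not 1, at least 1.5-fold higher, and put the interval of Stk11 below 0 as well (3 genes in place of 2). At a lower fold threshold 2 genes were higher, and at a fold of 2, 0 were higher and 0 lower. With a 99% interval, 1 gene (Prkag3) in place of 2 had an interval below 0, since that of Prkab1 then held 0.

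Spike-in totals changed most values, by -0.28 for every gene, and the cause was not tested. Acacb changed sign (-0.012). The log2 ratios became -0.29 for Prkaa2, -0.27 for Prkab2, -0.38 for Prkag1, -0.57 for Prkag3 and -0.37 for Stk11, with a median of -0.30 over the 10 genes. Then 0 genes were 1.5-fold higher, 0 had an interval above 0 and 6 had one below 0. Shares within a subunit class and ratios between genes do not depend on scaling. Against the next isoform only, the share of Prkag3 stayed within its interval in both genotypes, a check that cannot move the alpha and beta classes of 2 genes.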
